A study of Arabidopsis thaliana with 12 samples.

Results

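Plastid enzymes of amino acid synthesis were followed in Arabidopsis thaliana: cystathionine beta-lyase (CBL, AT3G57050) of methionine synthesis, and the dihydroxyacid dehydratase AT3G23940 and the ketol-acid reductoisomerase AT3G58610 of branched-chain amino acid synthesis. They were taken as the probes whose platform annotation names exactly that 1 locus, which gave 1 probe per gene and 3 of the 658 single-gene features tested. Total RNA of 6 samples of the prors1 mutant and of 6 samples of the wild type (WT), both in ecotype Columbia 0, was measured on single-channel arrays of 3439 probes. The labels describe the mutant as lacking a prolyl-tRNA synthetase, an enzyme that loads transfer RNA with proline for protein synthesis. They give no allele, tissue, age or growth condition, and none of the 11 marker loci of seed, root and senescent tissue had a single-gene probe, so the tissue could not be checked. They also do not say whether replicates 1 to 6 of a genotype are separate plants or repeat measurements, so any p-value reflects only how these samples varied, and that variation may be technical.

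Methionine is made in the plastid from aspartate. Cystathionine gamma-synthase joins a homoserine derivative to cysteine, CBL splits the resulting cystathionine to homocysteine, and methionine synthase adds a methyl group. Valine, isoleucine and leucine share a plastid route in which acetohydroxyacid synthase makes the first acid, the reductoisomerase reduces and rearranges it, and the dehydratase removes water to give the keto acid. All 3 enzymes are encoded in the nucleus, so their transcripts are not themselves made in the organelle.

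The genes were selected on the difference between prors1 and WT after quantile scaling: CBL because its decrease was among the largest, and the branched-chain genes as the measured members of their pathway list, with their small differences already known. The differences between genotypes are therefore given for these 3 genes as a description, without a test. Among the 105 single-gene features that were called lower and lay above the intensity floor on every array, CBL had the eighth largest decrease, at -1.32 on the log2 scale, between neighbours at -1.39 and -1.26.

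The arrays of the genotypes differed as a whole. The array median of the deposited intensity averaged 0.349 ± 0.0852 in prors1 and 0.154 ± 0.0141 in WT (SD, n = 6 each), and between 215 and 316 probes per prors1 array and between 368 and 396 per WT array were deposited at 0. The median feature thus differed by 0.91 (log2, prors1 minus WT) on deposited values and by -0.02 after quantile scaling, which gives all arrays 1 shared distribution. Every difference below depends on which of these is taken as the base. Fewer cells that express a gene and less of its RNA per cell cannot be told apart in such bulk samples.

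The deposited intensity of CBL, in the authors' units, was 0.182 at the lowest, 0.283 at the median and 0.348 at the highest in prors1, against 0.273, 0.338 and 0.401 in WT. The genotypes overlapped on this scale, with prors1 replicates 1, 3 and 4 inside the WT range and replicates 2, 5 and 6 below it. The mean was 0.273 ± 0.0821 in prors1 and 0.341 ± 0.0475 in WT (SD, n = 6 each). The dehydratase AT3G23940 ran the other way on the same scale, at 1.14 to 1.35 with a median of 1.23 in prors1, against 0.6247 to 0.841 with a median of 0.795 in WT. The reductoisomerase AT3G58610 lay at 0.218 to 0.411 with a median of 0.338 in prors1, against 0.146 to 0.181 with a median of 0.164 in WT. All prors1 samples lay above all WT samples for both branched-chain genes, as they did for 36.3% of all features on deposited values, so this is the common direction of those values. CBL was lower in the prors1 sample of 5 of the 6 replicate numbers, while both branched-chain genes were higher in all 6.

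**Figure D1:**
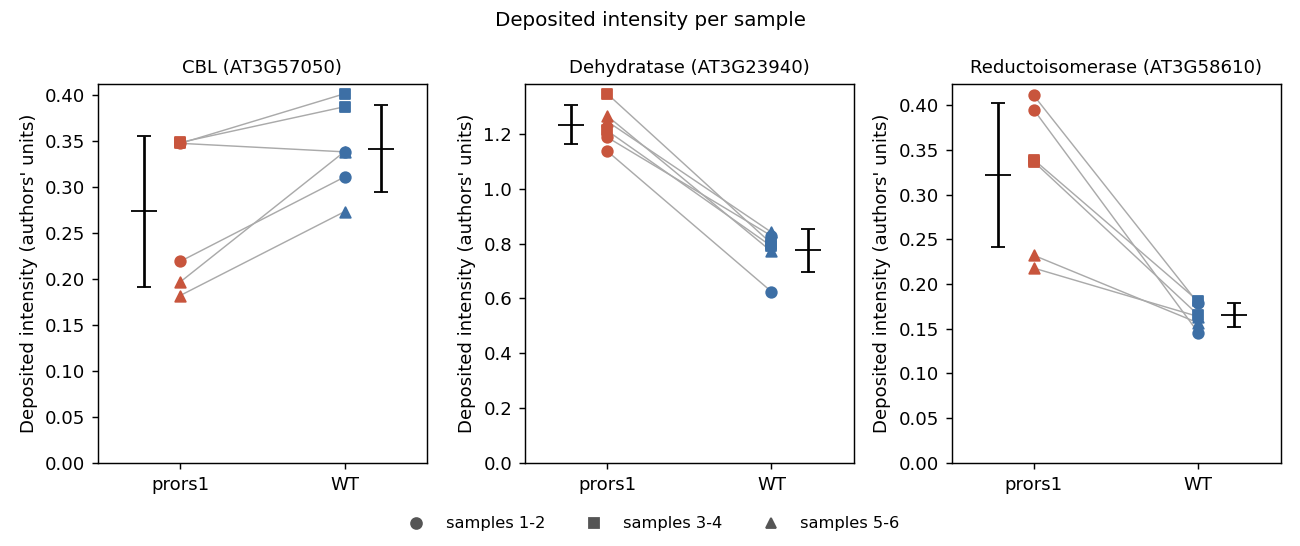
Deposited intensity (authors' units, linear axis from 0) of CBL, the dehydratase and the reductoisomerase in 6 prors1 and 6 WT samples, with grey lines joining samples of the same replicate number and black bars showing mean ± SD. CBL averaged 0.273 in prors1 and 0.341 in WT with overlap, while both branched-chain probes lay higher in every prors1 sample than in any WT sample.

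The position of a probe within its own array does not change under any scaling that keeps the order of probes. CBL stood at the 40.2nd percentile of the array at the median of the prors1 samples, with a range of 32.8 to 49.4, and at the 72.2nd percentile in WT, with a range of 68.4 to 73.3. No prors1 array placed CBL as high as any WT array did; on the quantile scale, which keeps this order, 14.1% of features separated in that direction. The dehydratase kept a place near the top, with a median percentile of 87.4 in prors1 (86.3 to 89.5) and 86.0 in WT (84.1 to 87.7), and was slightly higher in prors1 at all 6 replicate numbers although the ranges overlapped. The reductoisomerase ranged from 39.0 to 55.2 with a median of 46.3 in prors1, and from 48.2 to 54.5 with a median of 52.8 in WT. In multiples of the array median CBL was 0.605 to 0.982 in prors1 and 1.95 to 2.50 in WT, again without overlap, as for 20.5% of features in this direction. The dehydratase was 2.79 to 5.07 in prors1 and 4.06 to 6.01 in WT in these multiples, lower in prors1 at all 6 replicate numbers. The reductoisomerase was 0.758 to 1.14 in prors1 and 0.947 to 1.17 in WT, lower at 4 numbers and higher at 2. These percentiles and multiples describe where a probe stood on each array, and do not compare the abundance of the 3 transcripts.

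**Figure D2:**
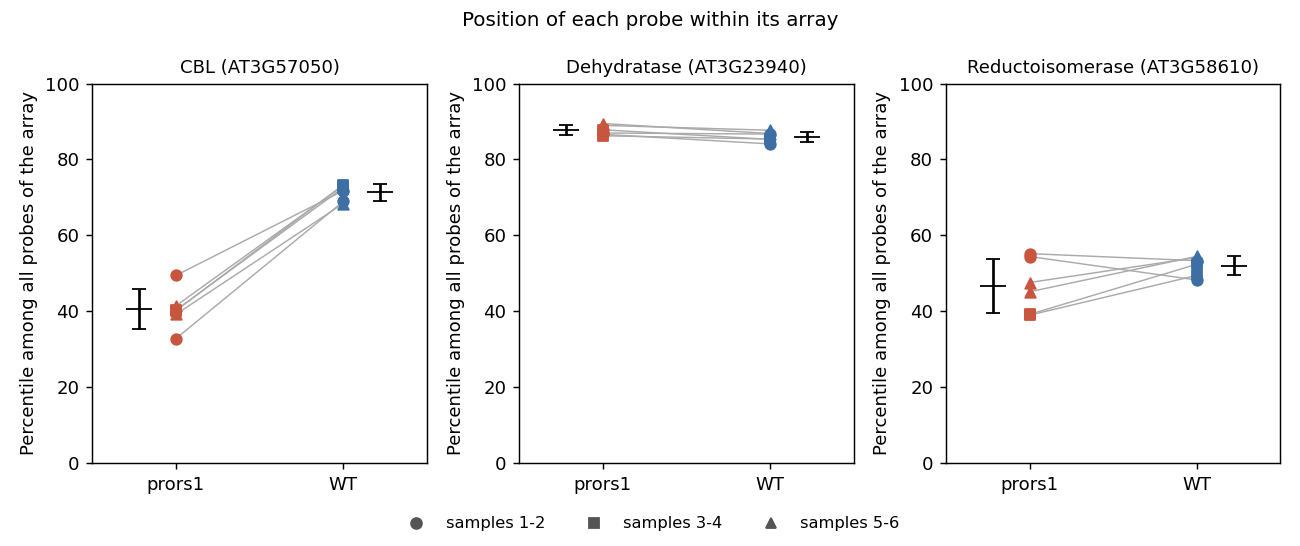
Percentile of each probe among the 3439 probes of its array (0 to 100) in 6 prors1 and 6 WT samples, with lines joining the same replicate number and bars showing mean ± SD. CBL had a mean of 40.5 in prors1 and 71.3 in WT, while the dehydratase was at 87.7 in prors1 and 86.0 in WT and the reductoisomerase at 46.7 in prors1 and 52.0 in WT.

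After quantile scaling, values under a floor at the 5th percentile of positive intensities were raised to it and log2 was taken; none of the 3 genes reached the floor on any array. CBL averaged -2.39 ± 0.23 in prors1 and -1.06 ± 0.11 in WT (SD, n = 6 each, log2 scale), a difference of -1.32 ± 0.12 (SE), or 2.50-fold lower in prors1. All 6 prors1 values, -2.73 to -2.01, lay under all 6 WT values, -1.21 to -0.96, as did those of 14.1% of all features. The dehydratase averaged 0.09 ± 0.15 in prors1 and -0.09 ± 0.13 in WT (SD), a difference of 0.18 ± 0.10 (SE). The reductoisomerase averaged -2.13 ± 0.29 in prors1 and -1.91 ± 0.10 in WT (SD), a difference of -0.22 ± 0.13 (SE). Both branched-chain genes overlapped between the genotypes here.

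At the threshold of limma's moderated test, an adjusted p of 0.05 over all 3303 features, 1 of the 3 genes was called, CBL as lower. Over the whole array 42.8% of features were called, 19.6% higher and 23.2% lower in prors1, and since the contrast chose CBL nothing is read from its call. After quantile scaling 2.97% of all features had a lower difference than CBL, 38.1% a lower one than the reductoisomerase and 62.6% a lower one than the dehydratase. The position of CBL follows from how it was selected. The branched-chain genes were taken as list members with their small differences already known.

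The size and, for the branched-chain genes, the sign of these differences moved with the scaling. CBL was at -0.37 on deposited values, -1.51 with each array divided by its median and -1.35 after cyclic loess, and it was not called on deposited values. Set against the median feature of the same scaling, CBL lay between -1.41 and -1.28 under all 4 scalings. The share of features with a lower difference than CBL was 2.97% after quantile scaling and 2.71% after cyclic loess. It was 6.23% on deposited values and 5.98% with array medians. The dehydratase was at 0.67 as deposited and called higher there, as were 61.4% of features, and at -0.47 once each array was divided by its median, where it was called lower, as were 30.5% of features. The reductoisomerase was at 0.93 as deposited, where it was called higher, at -0.22 with array medians and at -0.22 after cyclic loess. No direction for either branched-chain gene therefore held under every scaling, and a difference of 0.01 separated the reductoisomerase from the median feature on deposited values. Over the 4 scalings, the dehydratase lay between -0.37 and 0.20 from the median feature and the reductoisomerase between -0.25 and 0.01.

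**Figure D3:**
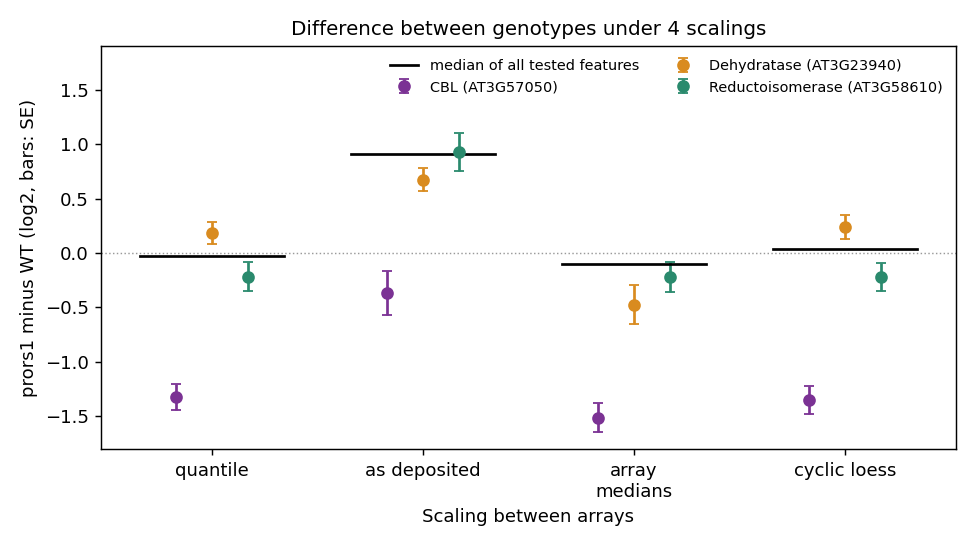
Difference prors1 minus WT (log2, bars are SE of the limma fit, 6 samples per genotype) of the 3 genes under 4 scalings, with a black line at the median of all tested features. CBL moved between -1.51 and -0.37, the dehydratase between -0.47 and 0.67 and the reductoisomerase between -0.22 and 0.93. Set against the median feature, CBL lay at -1.41 to -1.28, the dehydratase at -0.37 to 0.20 and the reductoisomerase at -0.25 to 0.01.

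Setting methionine against branched-chain synthesis within each array removes a single multiplying factor of that array. It does not remove differences between arrays that vary with intensity. The log2 value of CBL minus the mean of the 2 branched-chain genes was -1.84 at the lowest, -1.33 at the median and -1.09 at the highest in prors1, against -0.35, -0.01 and 0.13 in WT, on quantile-scaled values. Arrays of prors1 and WT did not overlap, which held for 12.4% of all features when they were set against the same 2 genes in this direction. The mean was -1.37 ± 0.28 in prors1 and -0.06 ± 0.20 in WT (SD, n = 6 each), a difference of -1.31, so that the ratio of CBL to the branched-chain genes was 2.47-fold lower in prors1. On deposited values, and equally with arrays divided by their medians, the difference was -1.17 with no overlap, as for 14.8% of features in this direction, and after cyclic loess it was -1.36. Split by gene, CBL minus the dehydratase differed by -1.504 and CBL minus the reductoisomerase by -1.11 after quantile scaling, and by -1.04 and -1.29 on deposited values (log2). An unequal change within the arrays does not show that the branched-chain transcripts stayed level.

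**Figure D4:**
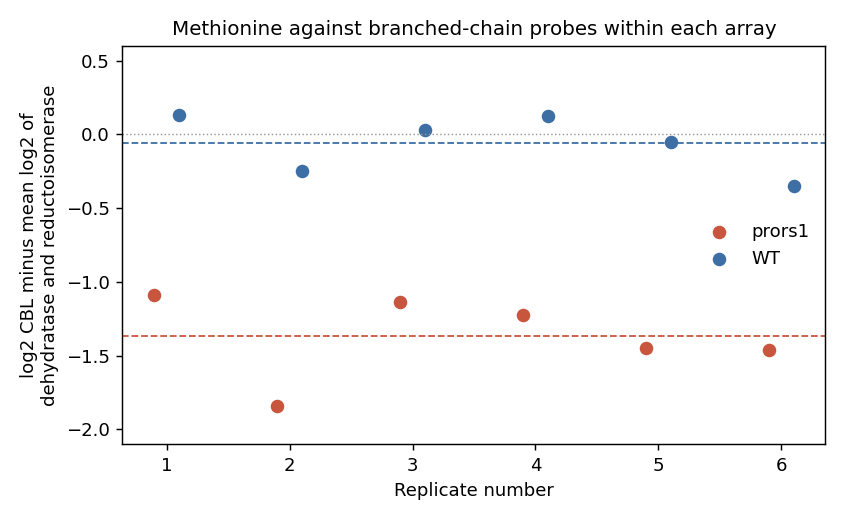
Log2 CBL minus the mean log2 of the dehydratase and the reductoisomerase after quantile scaling, for each replicate number, in prors1 and WT, with dashed lines at the genotype means of -1.37 and -0.06. Every prors1 array lay at -1.09 or lower and every WT array at -0.35 or higher.

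The branched-chain genes were not alike between themselves. The dehydratase minus the reductoisomerase was 2.22 ± 0.34 in prors1 and 1.82 ± 0.06 in WT (SD, n = 6 each, log2 scale) after quantile scaling, higher in prors1 at 5 of 6 replicate numbers. On deposited values the same quantity was 1.98 ± 0.43 in prors1 and 2.23 ± 0.10 in WT (SD, n = 6 each), so the sign of this difference depended on the scaling.

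Samples of the same number deviated together across the genotypes, so the comparison was also made by replicate number. Whether samples of different numbers deviated together as much was not examined. After quantile scaling CBL was lower in prors1 at all 6 numbers, from -1.54 at number 2 to -0.97 at number 1, with a mean of -1.32 ± 0.20 (SD, n = 6). The dehydratase was higher at all 6 numbers on this scale, by 0.03 at number 2, the smallest, to 0.31 at number 5, the largest. In multiples of the array median it was instead lower in prors1 at all 6 numbers. After quantile scaling the reductoisomerase was higher at numbers 1 and 2, by 0.25 and 0.07, and lower at the other 4, down to -0.54 at number 3. The contrast of CBL with the branched-chain genes was negative at all 6 numbers, from -1.59 to -1.11, with a mean of -1.31 ± 0.18 (SD). The share of all features with the same sign at all 6 numbers was not counted. Such counts, here and for other genes, are therefore a description and set no gene apart. With the replicate number as a block in the fit the SE was 0.10 for CBL, 0.08 for the dehydratase and 0.13 for the reductoisomerase. CBL alone of the 3 was called in that fit, as were 50.4% of all features. The difference of -1.32 was the one that chose CBL, so nothing is read from this call.

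Within a genotype the samples numbered 1-2, 3-4 and 5-6 tended to resemble each other, with SDs of their log2 ratios over the 2385 features above the floor throughout of 0.355 to 0.449, against 0.428 to 0.762 between other samples. The 3 genes differed in how far they followed these sets. The set means of CBL in prors1 spanned 0.02 on the log2 scale, although prors1 replicates 1 and 2 lay 0.72 apart, the widest gap within a set for any of the 3 genes. The reductoisomerase did the reverse in prors1, with set means spanning 0.64, highest in samples 1-2 and lowest in 3-4, and a largest gap within a set of 0.10. The dehydratase was highest in samples 5-6 of both genotypes. Taken by set, CBL differed between genotypes by -1.26 in samples 1-2, -1.41 in 3-4 and -1.30 in 5-6. The dehydratase differed by 0.14, 0.18 and 0.23 in the same sets and the reductoisomerase by 0.16, -0.49 and -0.32, so the sign of the reductoisomerase turned between sets. With the sets averaged, so that n = 3 per genotype, CBL was called, as were 22.7% of all features, and the branched-chain genes were not. The difference was the same -1.32 on which CBL was chosen, so nothing is read from this call either. With the sets averaged the SE was 0.14 for CBL, 0.16 for the dehydratase and 0.20 for the reductoisomerase. With the sets as a random block it was 0.19, 0.13 and 0.15 in the same order.

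Deviations from the genotype mean, which do not use the contrast that chose the genes, showed how far the 3 varied together over the 12 samples. Pearson's r was -0.22 between CBL and the dehydratase, -0.04 between CBL and the reductoisomerase and 0.14 between the branched-chain genes. The branched-chain genes correlated at -0.09 among the 6 prors1 samples and at 0.92 among the 6 WT samples. These values share arrays, scaling and the resemblance within sets, and are given as a description.

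By the same measure, over 459 other single-gene features that never reached the floor, the features most like CBL were AT5G66050 (r = 0.72), AT4G31930 (r = 0.71) and AT1G65370 (r = 0.68). Those most like the dehydratase were CRR21 (AT5G55740, r = 0.90), a pentatricopeptide repeat protein of plastid RNA editing, AT3G15900 (r = 0.90) and AT2G28660 (r = 0.88). Those most like the reductoisomerase were AT2G30100 (r = 0.83), AT5G62360 (r = 0.82) and AT1G08050 (r = 0.80). The likeness of CRR21 to the dehydratase was present in each genotype, with r = 0.91 in prors1 and r = 0.91 in WT (6 samples each). That of AT2G30100 to the reductoisomerase was 0.92 in prors1 and -0.19 in WT. These 9 were the highest of 459 compared with each gene and are high by that selection.

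Genes of neighbouring amino acid pathways were sparse on the array. Of 136 loci in 10 lists of amino acid metabolism, 7 were measured by single-gene features: the 3 genes above and 4 others. Of these 4, 2 rose and none fell in prors1 after quantile scaling, beside 19.6% of all features that rose and 23.2% that fell, and their median difference was 0.17 against -0.02 over all features. With the sets of samples averaged neither passed, where 22.7% of all features did. No other gene of methionine or branched-chain synthesis was among them, and 4 lists, those of branched-chain breakdown and of aromatic, glutamate and serine synthesis, had no single-gene member.

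AT4G26900 encodes the imidazole glycerol-phosphate synthase of histidine synthesis, which closes the imidazole ring. Its deposited intensity was 0.349 to 0.428 with a median of 0.413 in prors1, against 0.0773 to 0.118 with a median of 0.0835 in WT, with no overlap, as for 36.3% of all features in this direction on deposited values. After quantile scaling it averaged -1.76 ± 0.46 in prors1 and -2.63 ± 0.22 in WT (SD, n = 6 each), with prors1 replicate 3, at -2.39, just below the highest WT sample, replicate 1 at -2.33. The difference of 0.87 ± 0.20 (SE) passed limma's test at an adjusted p of 0.00384, and it was higher in prors1 at 6 of 6 replicate numbers. Over 22 alternative settings it was called in 21, with adjusted p from 2.09e-07 to 0.0616 in limma, the last with the sets of samples averaged.

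AT5G10920 encodes argininosuccinate lyase, the last enzyme of arginine synthesis. Its deposited intensity was 0.426 to 1.14 with a median of 0.968 in prors1, against 0.169 to 0.382 with a median of 0.305 in WT, again with no overlap, the common direction of 36.3% of features there. Samples 5-6 were the lowest of each genotype. The difference after quantile scaling was 0.67 ± 0.23 (SE, adjusted p = 0.0305 in limma), higher at 6 of 6 numbers. The call held in 12 of 22 alternatives and was lost in 7 of the 12 fits that left out 1 sample (prors1 replicates 1, 2, 3 and 4 and WT replicates 3, 5 and 6), after division by array medians (0.31) and with the sets averaged or as a random block (adjusted p from 0.00125 to 0.196 over all alternatives, limma).

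The other 2 did not pass. APS4 (AT5G43780), an ATP sulfurylase of the sulfate assimilation that supplies cysteine, had deposited intensities of 0.186 to 0.255 in prors1 and 0.0909 to 0.148 in WT. Its difference was -0.33 ± 0.21 (SE, adjusted p = 0.23 in limma) after quantile scaling and 0.95 on deposited values, 0.03 above the median feature there, where it was called higher (adjusted p = 0.000154 in limma, range 0.000154 to 0.454 over 22 alternatives). AT3G53580, the diaminopimelate epimerase of lysine synthesis, was at the floor in 3 of the 12 samples and differed by -0.45 ± 0.43 (SE, adjusted p = 0.445 in limma). It was lower in prors1 at 6 of 6 replicate numbers after quantile scaling but higher at 5 of 6 on deposited values. With the replicate number as a block it passed as lower (-0.45, adjusted p = 0.0411 in limma, range 0.0411 to 0.954 over 21 alternatives), as 50.4% of all features passed in either direction. It did not pass in limma with the sets averaged (adjusted p = 0.35) or as a random block (adjusted p = 0.712). Leaving out 1 sample moved its difference between -0.76 (without prors1 replicate 5) and -0.16 (without WT replicate 5), and that of APS4 between -0.44 (without prors1 replicate 5) and -0.17 (without prors1 replicate 3). Its lowest and highest values were in replicates 6 and 5 of each genotype on deposited values, so its spread followed the replicate number.

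**Figure D5:**
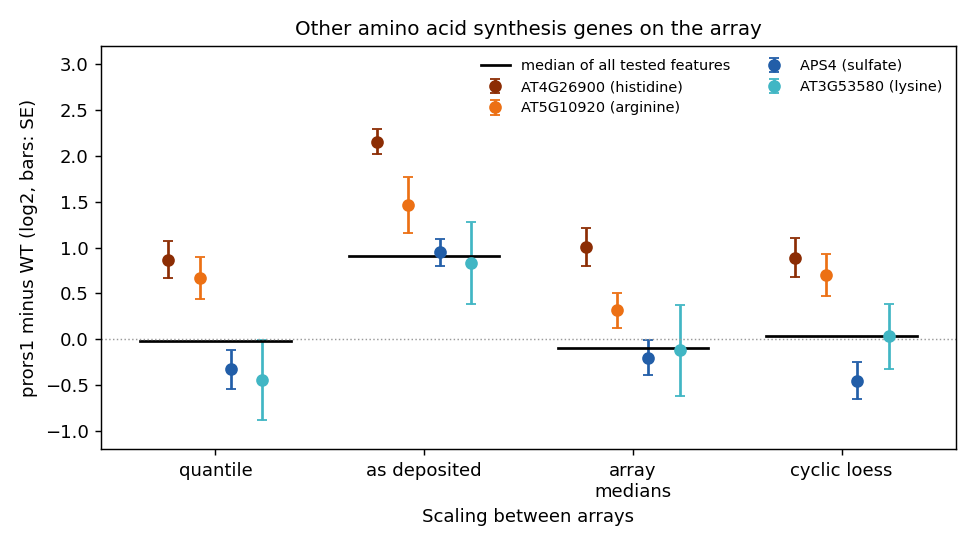
Difference prors1 minus WT (log2, bars are SE of the limma fit, 6 samples per genotype) of the 4 other measured amino acid synthesis genes under 4 scalings, with a black line at the median of all tested features. AT4G26900 (histidine) lay above the median feature by 0.85 to 1.24 under every scaling, and AT5G10920 (arginine) by 0.41 to 0.69. Set against the median feature, APS4 lay at -0.49 to 0.03 and AT3G53580 at -0.42 to -0.01. The differences of APS4 and AT3G53580 themselves changed sign between scalings.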

How the data were processed

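One table of intensities was deposited, with a column per sample; the labels and the table do not record how the authors labelled, scanned or scaled the arrays, and its values are linear, from 0 to 100. Probes took names from the platform annotation through TAIR10.1 gene identifiers: 692 probes name 1 gene (690 matched), 870 several and 1877 none. Probes with several genes, 10 of them for loci of the lists, stayed in the fit unnamed. Arrays were quantile-scaled. Intensities below the 5th percentile of the positive ones (0.0467, 13.7% of values) were set to that floor, so folds near it are understated, and log2 was taken. Excluding 135 features that never exceeded the floor, 3303 were tested in limma 3.58.1 under R 4.3.3 (lmFit and eBayes, genotype as the one term, two-sided, Benjamini-Hochberg, threshold 0.05). The fit was tried on simulated data in which all samples varied independently. These had no sets and no likeness of same-numbered samples, so the trial does not cover the structure seen here. Precision is limited by the number of arrays.

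The genes, lists and alternatives were chosen with earlier results of these data known. Named were the 3 genes, each list gene with a single-gene feature, and the 3 features most like each gene. Deviations of same-numbered samples correlated at 0.346 to 0.489 (2385 features above the floor throughout), the reason for the comparison by number. Different numbers were not compared, so pairing by number was not told apart from the resemblance within sets. Alternatives were 3 scalings, floors at percentiles 1 and 10, the dimmest 25% of features left out, a replicate block, samples 1-2, 3-4 and 5-6 averaged or as a random block, another variance model, and each sample left out. No sequences were used here.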

Additional observations from a re-analysis of the deposited data

Results flagged for a closer look

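Over the 7 measured list genes and the contrast of CBL with the branched-chain genes, 16 groups of 6 samples were searched for a stray sample. In 1 of the 16 a stray sample was found, near the rate of about 1 group in 20 that chance gives. AT3G53580 was highest in prors1 replicate 5 at -2.31 on the log2 scale after quantile scaling, with the next prors1 sample at -3.82. The lowest prors1 value, -4.42, was the intensity floor, which narrows the range against which this gap was judged. WT replicate 5 was likewise the highest of its genotype, at -1.998.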

How the results depend on the processing

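The difference of CBL, on which it was chosen, was -0.37 on deposited values and -1.51 with arrays divided by their medians; as the alternatives reuse those values, nothing is read from its calls. The dehydratase moved to 0.67 as deposited and -0.47 with array medians, and the reductoisomerase to 0.93 as deposited. APS4 turned to 0.95 and AT3G53580 to 0.83 as deposited, where the median feature was itself at 0.91. AT3G53580 turned to 0.031 after cyclic loess, with the median feature at 0.038, and the cause was not tested. Deposited values gave 2212 called features, 2030 higher and 182 lower. Division by array medians gave 552 higher and 1003 lower, against 649 and 765 after quantile scaling. With samples 1-2, 3-4 and 5-6 averaged 749 were called, 358 higher and 391 lower, with 3 units per genotype in place of 6. Calls among the 4 other list genes, 2 after quantile scaling, were 3 on deposited values and 3 with the replicate number as a block. They were 1 with array medians, 1 with these sets as a random block and 0 with the sets averaged. Of all features 42.8% were called after quantile scaling, 50.4% with the replicate block and 22.7% with the sets averaged. The called features were 2212 of 3307 on deposited values, 1555 of 3293 with array medians and 996 of 3303 with the random block. Of the 9 most alike features, 3 stayed among the 10 most alike on deposited values, 5 with array medians and 4 with the sets averaged. With the replicate number as a block 1664 features were called, against 1414, and among the 7 list genes AT3G53580 was the 1 whose call changed. Leaving out 1 sample gave 1283 to 1490 calls (581 to 690 higher, 688 to 800 lower). It gave -1.42 to -1.27 for CBL, 0.14 to 0.22 for the dehydratase, -0.29 to -0.16 for the reductoisomerase and -1.39 to -1.23 for their contrast. It gave 1 to 2 calls among the 4 other genes and 8 to 9 of the most alike features. The contrast moved by less than 1 SD between samples under the other scalings and with 1 sample left out. On deposited values and with array medians it is the same quantity. The floors, the features left out, the block and the averaged sets could not change it. It also carries the decrease on which CBL was chosen, so its steadiness is only a description.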
